A study of Mus musculus with 4 samples.

Results

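Non-dividing secretory progenitors were examined in single-cell RNA sequencing data from the distal small-intestinal epithelium of 8 mice. They were chosen cell by cell from UMI counts, the counts of distinct captured RNA molecules. A progenitor had a UMI of at least 2 of the 3 genes Atoh1, Dll1 and Spdef, and at most 1 UMI of Mki67 and Top2a together. It had at most 1 UMI of Lgr5, goblet products (Muc2, Zg16, Fcgbp and Clca1) under 1% and Paneth products (Lyz1, Defa17 and Defa24) under 0.5% of its UMIs. The rule kept 59 of the 2011 cells that passed the quality filter, 35 of 1134 in pool 1 and 24 of 877 in pool 2. The remaining 1952 are called other cells. These 13 genes chose the progenitors, so their levels are given as a description and were not tested, and genes expressed together with them are not independent of the choice.

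Every mouse carried Lgr5-EGFP-IRES-CreERT2 and Rosa26-mTmG and had received 4-OH-tamoxifen, so no group was untreated and no group lacked an allele. The recombinase is made where Lgr5 is expressed, and once activated it switches the Rosa26 reporter to membrane GFP in that cell and its progeny. Cells sorted as GFP-high are called clones and cells sorted as GFP-negative are called control. The groups were clones traced for 48 h and clones traced for 72 h, and control cells of the same 4 mice at 48 h (mice 1 to 4) and the same 4 at 72 h (mice 5 to 8). The Lgr5 allele makes a green protein of its own, and where the GFP-high limit was set is not given in the sources used here. Clones and control cells of a mouse were always in opposite pools, and a hashtag antibody per mouse told the mice apart within a pool.

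Stem cells that express Lgr5 sit at the base of the intestinal crypts, and their daughters become either absorptive or secretory. Notch signalling sets this choice: a cell that receives the signal makes Hes1, which represses Atoh1, while a cell that escapes it makes Atoh1, the factor that starts the secretory programme. Such cells present the Notch ligands Dll1 and Dll4 to their neighbours, and Spdef acts after Atoh1 as goblet and Paneth cells mature.

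The 59 progenitors had a median of 24231 UMIs (range 2370 to 44533), against 19243.5 in other cells, and no barcode was shared between the pools. All 3 of Atoh1, Dll1 and Spdef were seen in 40 progenitors, Dll1 with Spdef in 9, Atoh1 with Dll1 in 7 and Atoh1 with Spdef in 3. Atoh1 had a UMI in 84.7% of progenitors (median 24231 UMIs a cell), against 2.65% of 151 absorptive cells (median 27862 UMIs), defined as cells with at least 5 UMIs of Sis, Alpi, Apoa1 and Apoa4 together. The absorptive share serves as a reference level and does not measure free RNA alone. Single cells of this class reached 1288 UMIs of the goblet list and 1325 of the enteroendocrine list per 10000. The 3 markers go with the label, but the rule had used them.

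Cells close to a limit of the rule were not rare. Exactly 2 of the 3 genes were seen in 19 progenitors, and 58 cells outside the rule had exactly 1 and met every other limit. Goblet products took 0.75 to 1% of the UMIs in 15 progenitors, and 24 cells lay within the same width above the limit. With 1 UMI of Mki67 and Top2a there were 22 progenitors, and 9 cells outside had 2 UMIs. Fcgbp, a mucus-associated protein, had a UMI in 100% of progenitors (median 55 UMIs a cell) and the mucin Muc2 in 94.9% (median 34), so goblet products were present although they were held under the limit. Zg16, a late goblet product, had a median of 1 UMI in progenitors, against 77 in the 214 goblet cells.

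Defining markers of other cell types were scarce in progenitors. Immune markers (Ptprc, Cd3e, Cd79a, Lyz2) had a UMI in 0 of 59 progenitors, which allows a share of up to 5.08%, and the stromal and endothelial and the erythroid markers had a UMI in 1 cell each. Tuft markers were seen in 3 progenitors. Of the 7 enteroendocrine markers at least 1 was seen in 13 progenitors, but at 5 or more UMIs in only 2. Doublets of cells from different mice are reduced by the limit that 60% of a barcode's hashtag counts belong to 1 hashtag, and doublets within a mouse were not removed.

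**Figure D1:**
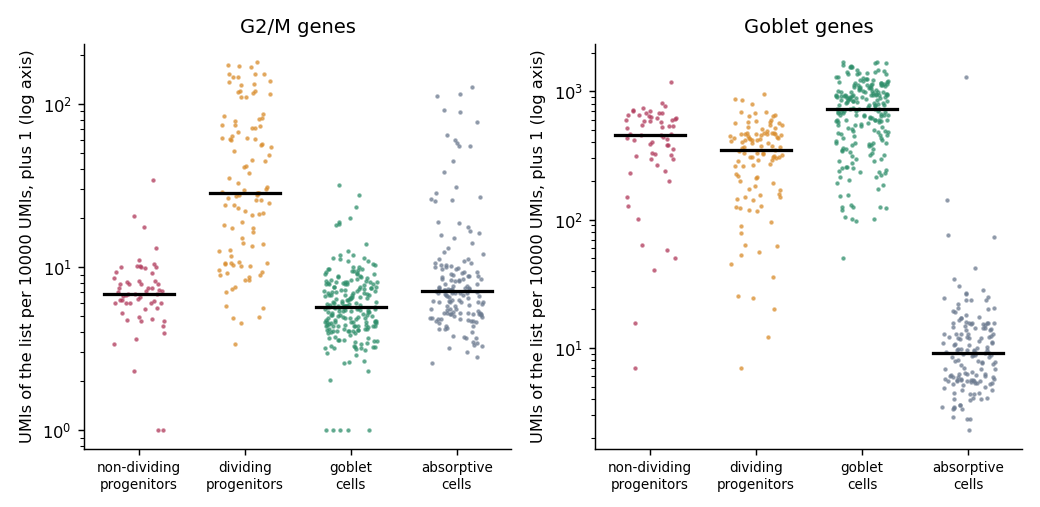
Summed level per cell, in UMIs per 10000, of the G2/M and goblet gene lists in non-dividing and dividing secretory progenitors, goblet cells and absorptive cells. Each point is a cell, plotted with 1 added on a log axis, and each line the median. Goblet list levels lie between those of dividing progenitors (median 347) and goblet cells (728), at a median of 459, and G2/M levels (5.87) lie near those of goblet cells (4.69) and below those of dividing progenitors (27.4).

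Non-dividing progenitors were found in every control sample and in every 72 h clone sample, and in no 48 h clone sample. At 48 h the clones of mice 1, 2, 3 and 4 held 0 of 4, 0 of 18, 0 of 46 and 0 of 8 cells, against 4 of 152, 5 of 91, 3 of 228 and 9 of 162 control cells. At 72 h the clones of mice 5, 6, 7 and 8 held 6 of 163, 1 of 37, 1 of 113 and 10 of 343, against 12 of 247, 3 of 134, 1 of 82 and 4 of 183 control cells. The 48 h clones thus lay below all 4 control samples, while the ranges of 72 h clones and control overlapped.

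**Figure D2:**
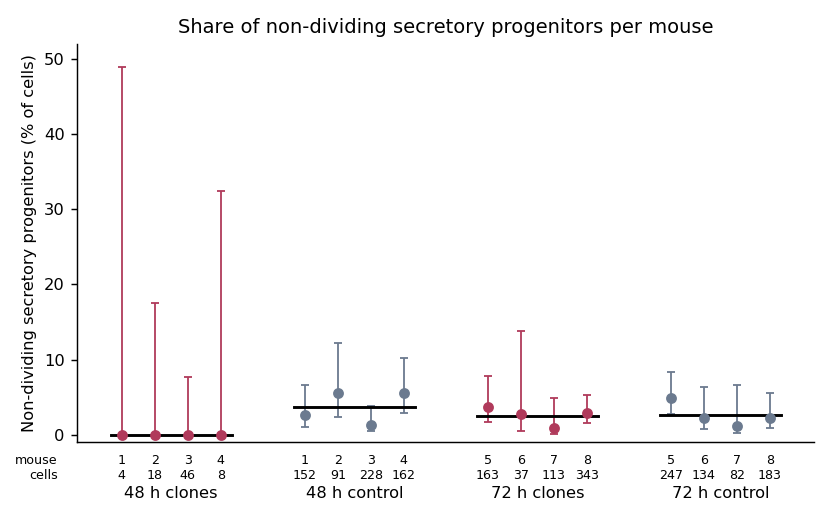
Share of cells, in percent, that were non-dividing secretory progenitors in each mouse, for clones and control cells at 48 h and 72 h. Each point is a mouse with its Wilson 95% interval, which covers counting error only, and each horizontal line the mean. The 48 h clones are at 0 in all 4 mice with intervals up to 49.0%, and the other groups have means of 2.55 to 3.75%.

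The share averaged 0% in 48 h clones and 3.75% ± 2.12 in 48 h control cells (SD, n = 4 mice each), a difference of -3.75 percentage points (exact two-sided permutation test, p = 0.0286, the smallest that 4 against 4 can give, and 0.0476 after Benjamini-Hochberg adjustment over 5 comparisons). Clones and control come from the same mice, and exact sign flips within mice gave p = 0.125, the smallest that 4 mice can give. Only 76 clone cells stood behind the 0, which allows a share of up to 3.95%, above the control mean, so a lower share in 48 h clones was not detectable at this depth when the cells are pooled. The 46 clone cells of mouse 3 had a median of 1638 UMIs, far under the medians of 13135.5 to 19517.5 in the clones of the other 3 mice. Among cells with at least 5000 UMIs the difference was -3.55 points (exact permutation test, p = 0.0286, adjusted p = 0.143). With mitochondrial shares under 10% the call held (-5.18 points, exact permutation test, adjusted p = 0.0476). Leaving out any mouse ended the call (adjusted p = 0.0714 to 0.167), but this could not test it. Without a 48 h mouse, 3 against 3 can give no p under 0.1. Without a 72 h mouse these shares stay the same, with p = 0.0286 (exact permutation test), and only the adjustment changes. With at least 1 of the 3 genes required the difference was -0.519 points (adjusted p = 1).

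At 72 h the share averaged 2.55% ± 1.18 in clones and 2.63% ± 1.56 in control cells (SD, n = 4 mice each), a difference of -0.0796 points (exact permutation test, adjusted p = 1). Within pool 1 this difference was -1.65 points and within pool 2 it was 1.49. Each of these values sets clones of 2 mice against control cells of 2 other mice, so pool and mouse cannot be told apart. In clones, the share at 72 h exceeded that at 48 h by 2.55 points (exact permutation test, adjusted p = 0.0476), by 1.90 within pool 1 and by 3.19 within pool 2. This call, which rests on the 0 of 76 cells at 48 h, ended on leaving out any mouse (adjusted p = 0.0714 to 0.143), with all 3 genes required (0.965 points, adjusted p = 0.238) and where the top hashtag held 80% or more (0.793, adjusted p = 0.607), and the difference was -1.39 with at least 1 gene (adjusted p = 1). In control cells, 72 h stood 1.12 points under 48 h (difference -1.12, exact permutation test, adjusted p = 0.464). The clone-control difference changed by 3.67 points between the times (exact permutation test, adjusted p = 0.0476); no pool gives a value of its own, since a mouse's clones and control lay in opposite pools. It rests on the same 0, and it was not called on leaving out any mouse (adjusted p = 0.0952 to 0.143), with cells thinned to 2000 UMIs (2.28 points, adjusted p = 0.214) or with a top hashtag of at least 80% (1.29, adjusted p = 0.607), and was -0.951 with at least 1 gene (adjusted p = 1).

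Dividing secretory progenitors, which met the same rule but had at least 2 UMIs of Mki67 and Top2a, numbered 25 in 72 h clones and 0 in 48 h clones, against 23 in 72 h control and 59 in 48 h control cells. With them included, the share of progenitors in control cells was 5.95% at 72 h and 12.6% at 48 h, a difference of -6.63 points (exact permutation test, adjusted p = 0.0357). The 48 h clones stayed at 0% with them included, against the 12.6% of 48 h control (difference -12.6 points, exact permutation test, adjusted p = 0.0357). That 0 rests on the same 76 clone cells, of which the 46 of mouse 3 had a median of 1638 UMIs. This wider rule was chosen after seeing the data, and it was not run with a higher depth limit or with thinning. Cells with at least 2 Lgr5 UMIs, which the rule leaves out, made up 29.7 to 50.3% of 72 h clones by mouse (median 38.8%) and 4.35 to 75% of 48 h clones (median 34.7%), where mouse 3 was the lowest, against 14.8 to 23.9% of 72 h control (median 20.3%) and 10.5 to 22.0% of 48 h control cells (median 18.9%). The part of the sort, or of Lgr5 level, in the shares of progenitors was not tested.

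Gene levels were compared on UMIs summed over progenitors and over other cells of the same mouse and gate, scaled to CPM (counts per 1000000 UMIs of the sum). The sums with at least 5 progenitors were clones of mouse 5 (6 progenitors) and mouse 8 (10), and control cells of mouse 2 (5), mouse 4 (9) and mouse 5 (12). Values below stand in this order, log2 fold changes are progenitors over other cells with their standard error (SE), and adjusted p-values are from edgeR's quasi-likelihood test with Benjamini-Hochberg adjustment over 8220 genes. Mouse 5 gave 2 of the 5 samples, and without it 516 genes were called in place of 1173. Of all genes 14.3% were called, 6.82% higher and 7.45% lower in progenitors, and the median change of all genes was -0.06. For 10.9% of all genes the samples of progenitors and of other cells did not overlap.

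The transcription factors of secretory cells were mostly higher in progenitors. Of 13 tested factors 9 rose, 1 fell and 3 did not pass, with a median log2 fold change of 1.03. Creb3l1, a membrane-bound factor of secretory cells, had 433, 369, 409, 373 and 419 CPM in progenitors, against 64.6, 107, 143, 167 and 88.0 CPM in other cells. Its progenitor levels were nearly even between samples and lay above every sample of other cells (log2 fold change 1.95, SE 0.16, adjusted p = 3.27e-11). Klf4, a factor of goblet cell differentiation, had 416, 470, 543, 281 and 396 CPM in progenitors, against 159, 209, 227, 250 and 215 CPM in other cells (1.03, SE 0.14, adjusted p = 1.39e-06). Again the groups did not overlap, with the lowest progenitor sample, mouse 4 control, close to the highest of other cells.

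Forkhead factors of the gut endoderm rose together: Foxa2 averaged 41.5 ± 8.33 CPM in progenitors and 11.4 ± 1.19 CPM in other cells (SD, n = 5 samples), and Foxa3 and Foxa1 rose by 1.31 and 0.98 on the log2 scale. Xbp1, which drives the unfolded protein response and the secretory apparatus, rose by 0.99, and Creb3l4, a membrane-bound factor related to Creb3l1, by 1.43. Gfi1, which acts after Atoh1 and keeps goblet and Paneth cells from an endocrine fate, had 57.8, 15.2, 80.1, 6.11 and 27.4 CPM in progenitors, against 3.69, 7.83, 10.2, 13.6 and 7.19 CPM in other cells. Progenitors were higher in 4 of 5 samples, with mouse 4 control the exception (2.09, SE 0.47, adjusted p = 0.00164). Bhlha15, a factor of secretory cell architecture, rose by 1.62. Without mouse 5 the calls of Gfi1 (1.44, adjusted p = 0.216), Bhlha15 (1.36, adjusted p = 0.247) and Foxa1 (0.85, adjusted p = 0.0658) were lost, and Bhlha15 was also lost without mouse 8 (1.47, adjusted p = 0.0787).

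Sox4, a factor of early crypt progenitors, was the member that fell, to 156, 152, 26.7, 67.2 and 165 CPM in progenitors, against 275, 200, 119, 149 and 165 CPM in other cells (-0.58, SE 0.19, adjusted p = 0.0299). The call was lost without mouse 2 (-0.46, adjusted p = 0.114) and without mouse 4 (-0.48, adjusted p = 0.112), and the fold was 0.05 with every cell thinned to 2000 UMIs. Sox9, a factor of crypt base and Paneth cells, did not pass (-0.17, adjusted p = 0.567), nor did the intestinal identity factor Cdx2 (-0.57, adjusted p = 0.0679). Cdx2 was called lower without mouse 8 (-0.70, adjusted p = 0.0498), with all 8 mice, both gates of a mouse summed (-0.62, adjusted p = 0.0115), with a looser filter (-0.63, adjusted p = 0.0448), without TMM scaling (-0.61, adjusted p = 0.048) and against cells with no secretory rule gene (-0.77, adjusted p = 0.00759).

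**Figure D3:**
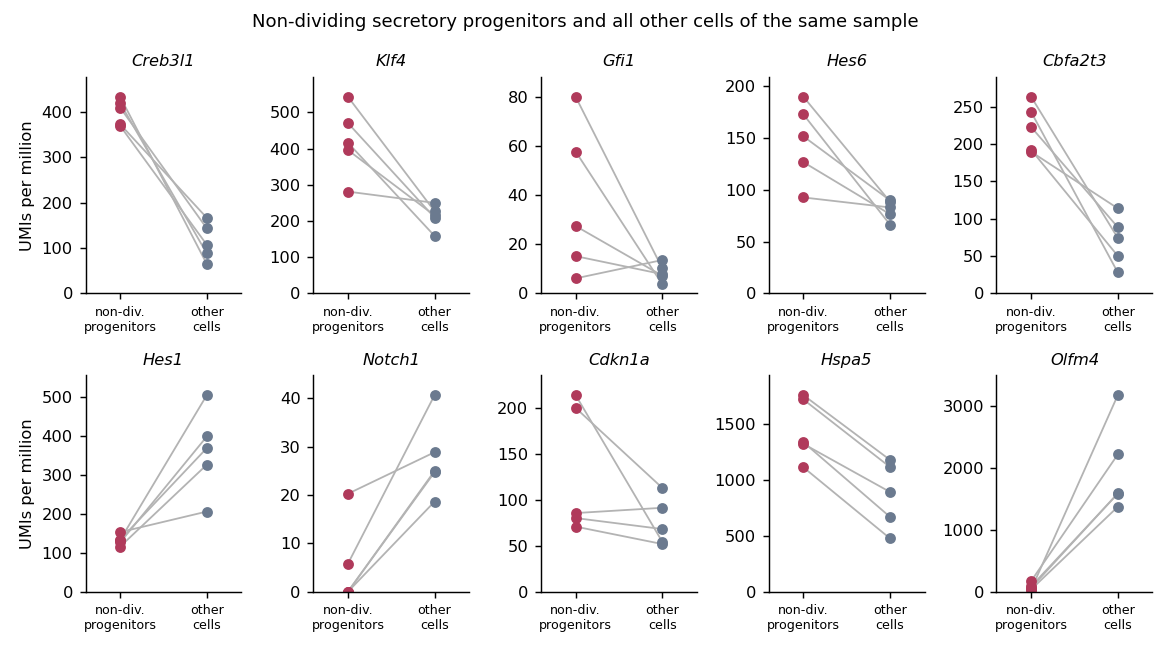
Levels, in CPM, of 10 genes in non-dividing secretory progenitors and in other cells, with a point for each of the 5 samples and a line that joins the same sample. Creb3l1, Klf4 and Hes6 are higher in progenitors in all 5 samples, and Hes1 is lower in all 5 without overlap.

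Genes of the Notch pathway moved in both directions in progenitors: of 14 tested, 4 rose, 4 fell and 6 did not pass, with a median of -0.13. Of those that fell, Notch1, Nrarp and Dtx4 with 3 to 5 UMIs over all progenitor sums, passed the filter on low counts through other cells alone and were bound to be lower, so the count of genes that fell is no support. The ligand Dll4 was higher in 5 of 5 samples, at 34.7, 20.2, 53.4, 30.6 and 31.4 CPM in progenitors and 6.33, 12, 17.2, 25.4 and 9.31 CPM in other cells (1.37, SE 0.38, adjusted p = 0.0114), but lost its call without mouse 5 (0.90, adjusted p = 0.362). Dll4 had a UMI in 49.2% of progenitors (median 24231 UMIs), against 8.61% of absorptive cells (median 27862). Lfng, the glycosyltransferase that modifies Notch receptors, rose by 1.37, and its call rested on mouse 5 control at 47.0 CPM: without mouse 5 the value was 0.33 (adjusted p = 0.88), and without mouse 8 it was 1.35 (adjusted p = 0.0576).

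The receptor Notch1 fell to 5.78, 20.2, 0, 0 and 0 CPM in progenitors, against 40.6, 28.8, 24.7, 18.6 and 25.0 CPM in other cells. Only the clone samples held any Notch1 UMI among progenitors (-2.27, SE 0.57, adjusted p = 0.00431, and -1.52, adjusted p = 0.263, without mouse 5). It had a UMI in 3 of 59 progenitors (5.08%), against 26.5% of absorptive cells and 60.2% of the 502 cells with at least 2 Lgr5 UMIs (median 21911 UMIs). Notch2, another receptor, had a UMI in 0 of 59 progenitors, which allows a share of cells with a UMI of up to 5.08% and sets no limit on cells that express it; 30.7% of the Lgr5 cells had one.

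Hes1, the repressor induced by Notch, had 133, 126, 116, 153 and 133 CPM in progenitors, against 504, 398, 326, 206 and 368 CPM in other cells. Progenitor levels lay in a narrow band below all samples of other cells (-1.37, SE 0.17, adjusted p = 1.54e-07), yet 72.9% of progenitors still had a Hes1 UMI. The Notch feedback gene Nrarp was lower in every sample (-2.71, SE 0.64, adjusted p = 0.0023), with 3 UMIs over all progenitor sums. Dtx4, a ubiquitin ligase of the pathway, fell by 1.92 on 4 UMIs, and leaving out any of the 4 mice ended its call (-2.81 to -1.55, adjusted p = 0.0527 to 0.162).

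Hes6, a relative of Hes1 that can inhibit it, had 92.5, 126, 151, 189 and 172 CPM in progenitors, against 82.8, 76.3, 89.6, 88.3 and 66.2 CPM in other cells (0.93, SE 0.18, adjusted p = 0.000328). Every progenitor sample was above every sample of other cells, by the least in mouse 5 clones. Cbfa2t3, a corepressor of the ETO family, averaged 222 ± 31.9 CPM in progenitors and 70.9 ± 33.3 CPM in other cells (SD, n = 5 samples), without overlap (1.83, SE 0.21, adjusted p = 2.66e-08). Rbpj, the DNA-binding partner of Notch, the shedding protease Adam10 and the ligand-activating ligase Mib1 did not pass (-0.70, -0.36 and 0.17, adjusted p = 0.163, 0.344 and 0.746).

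Promoters of the factors and Notch genes that rose were read for 2 motifs on both strands, CAGCTG, an E-box that Atoh1 binds, and TGGGAA, the core that Rbpj binds. Of 13 such genes 12 had a promoter of 300 bases around the gene's start in the RefSeq table (GRCm38.p6), and 4 of them held CAGCTG and 3 held TGGGAA. Of the 5 genes of these lists that fell, 3 had a promoter, and 2 of them (Nrarp and Sox4) held CAGCTG and 1 held TGGGAA. Over all genes of the table, 18.3% held CAGCTG and 28.3% held TGGGAA. The 4 that rose and hold CAGCTG are printed to show where the letters lie; capitals mark both motifs, on either strand, and the sequence runs in the direction of the gene. A match describes the letters and not a bound site.
Hes6, chr1:91413173-91413472, minus strand: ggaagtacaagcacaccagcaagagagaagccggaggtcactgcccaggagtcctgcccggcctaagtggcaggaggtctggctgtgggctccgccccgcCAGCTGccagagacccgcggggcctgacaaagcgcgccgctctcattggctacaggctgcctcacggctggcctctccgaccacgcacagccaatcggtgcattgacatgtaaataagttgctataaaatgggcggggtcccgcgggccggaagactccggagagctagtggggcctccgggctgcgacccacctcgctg
Cbfa2t3, chr8:122699060-122699359, minus strand: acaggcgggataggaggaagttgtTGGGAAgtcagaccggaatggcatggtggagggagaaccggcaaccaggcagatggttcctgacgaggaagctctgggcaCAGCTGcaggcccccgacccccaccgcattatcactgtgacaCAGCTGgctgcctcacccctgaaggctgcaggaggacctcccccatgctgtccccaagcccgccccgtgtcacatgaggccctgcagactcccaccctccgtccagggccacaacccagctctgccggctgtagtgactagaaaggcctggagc
Klf4, chr4:55532426-55532725, minus strand: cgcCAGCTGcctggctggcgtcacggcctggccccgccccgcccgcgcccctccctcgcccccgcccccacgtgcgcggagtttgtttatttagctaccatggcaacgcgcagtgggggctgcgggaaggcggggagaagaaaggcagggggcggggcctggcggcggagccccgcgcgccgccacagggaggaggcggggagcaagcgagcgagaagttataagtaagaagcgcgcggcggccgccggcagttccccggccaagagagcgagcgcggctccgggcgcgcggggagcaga
Lfng, chr5:140607091-140607390, plus strand: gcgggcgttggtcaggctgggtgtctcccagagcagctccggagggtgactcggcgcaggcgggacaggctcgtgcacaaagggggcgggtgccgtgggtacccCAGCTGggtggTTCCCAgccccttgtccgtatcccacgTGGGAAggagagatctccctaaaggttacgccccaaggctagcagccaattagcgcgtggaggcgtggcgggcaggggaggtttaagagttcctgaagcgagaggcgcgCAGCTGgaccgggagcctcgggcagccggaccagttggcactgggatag

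Products of goblet cells that the rule did not use were also higher in progenitors: of 20 tested genes of the goblet list 15 rose, 1 fell and 4 did not pass, with a median of 0.97. Agr2, a disulfide isomerase needed for mucin folding, had 9848, 9521, 20696, 14320 and 11062 CPM in progenitors, against 2478, 5342, 7402, 7242 and 3169 CPM in other cells, without overlap (1.47, SE 0.12, adjusted p = 1.94e-11). The trefoil peptide Tff3, which stabilises mucus, was higher in 5 of 5 samples (1.09, SE 0.11, adjusted p = 2.33e-09). Spink4, a secreted protease inhibitor, was higher in 4 of 5 (0.48, SE 0.10, adjusted p = 0.00054), with the exception of mouse 5 clones, at 3485 CPM in progenitors and 3506 CPM in other cells. With all 8 mice the value of Spink4 was 0.24 (adjusted p = 0.204) and with mitochondrial shares under 10% it was 0.31 (adjusted p = 0.0588), neither called. The chemokine gene Ccl9 had 80.9, 703, 472, 318 and 278 CPM in progenitors, against 19.3, 72.9, 48.8, 120 and 65.8 CPM in other cells (2.51, SE 0.20, adjusted p = 9.41e-12), higher in all 5. The one that fell was Ccl6, another chemokine gene, which mouse 4 control held at 1522 CPM in progenitors and mouse 5 clones at 0 (-0.83, adjusted p = 0.0477). It was not called without mouse 2, 5 or 8 (-0.59, -0.56 and -0.51, adjusted p = 0.249, 0.349 and 0.158), in control cells alone (-0.15, adjusted p = 0.635) or by DESeq2 (-1.58, adjusted p = 0.355).

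Of the genes for folding and export in the endoplasmic reticulum, 39 of 44 tested rose in progenitors and 0 fell, with a median of 0.80. The chaperone Hspa5 had 1115, 1325, 1763, 1724 and 1341 CPM in progenitors, against 478, 894, 1182, 1118 and 671 CPM in other cells (0.84, SE 0.11, adjusted p = 7.65e-07), higher in all 5 samples although the ranges overlap. Sec61b, a subunit of the translocation channel, rose by 0.97 without overlap, and Hsp90b1, the chaperone of the same compartment, by 0.69. Of 16 genes of regulated exocytosis 6 rose and 0 fell, among them the small GTPase Rab15 at 136 ± 20.6 CPM in progenitors and 53.3 ± 15.1 CPM in other cells (SD, n = 5 samples, log2 fold change 1.41, adjusted p = 7.57e-07), and Sytl2, which tethers granules to the membrane (0.91).

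Paneth list genes were divided, with 3 of 9 higher and 4 lower in progenitors. Kit, the stem cell factor receptor found on crypt base secretory cells, had 185, 273, 169, 263 and 329 CPM in progenitors, against 73.8, 87.9, 81.1, 107 and 92.4 CPM in other cells (1.53, SE 0.16, adjusted p = 2.96e-09). No samples overlapped, and Kit had a UMI in 94.9% of progenitors and 13.2% of absorptive cells. The protease Mmp7, which activates defensins, was uneven: 335 CPM in progenitors of mouse 5 clones lay under the 457 CPM of other cells, and 2550 CPM in those of mouse 8 clones lay above 562 CPM (0.85, SE 0.18, adjusted p = 0.000654). Among enteroendocrine list genes 3 could be tested: the hormone gene Sct rose (0.85, adjusted p = 0.000393), and Tac1, a neuropeptide gene, fell (-1.31, adjusted p = 0.0146). The call of Sct was lost with cells thinned to 2000 UMIs (1.02, adjusted p = 0.196). Against goblet cells 2 genes of this list could be tested, and both were lower in progenitors (median -1.34). Tac1 was lost without mouse 5 (-1.03, adjusted p = 0.16) and without mouse 8 (-0.89, adjusted p = 0.121).

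Cell cycle genes followed from the rule in part, since Mki67 and Top2a chose against dividing cells. All 33 tested G2/M genes were lower in progenitors, with 7 of them at 0 UMIs in the progenitor sums; the median was -4.25, or -3.22 with those 7 at the fold that 3 counts over the sums allow. Nusap1, a spindle protein, was at 0 UMIs and so at least 23.3-fold lower. The 7 genes at 0, Nusap1 among them, passed the filter through other cells alone and could only come out lower. The count of lower G2/M genes is therefore no support. Of 28 G1/S genes 16 fell and 0 rose. Outside the mitotic genes, Cdk6, a kinase of the G1 phase, fell to 28.9, 25.3, 35.6, 24.4 and 54.9 CPM in progenitors, against 157, 96.4, 76.2, 70.6 and 95.6 CPM in other cells, without overlap (-1.45, SE 0.26, adjusted p = 7.19e-05).

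Of 20 cyclins and cell cycle inhibitors 2 rose and 7 fell in progenitors, with a median of -0.64. The antiproliferative gene Btg2 rose without overlap, at 751, 997, 677, 1045 and 847 CPM in progenitors and 591, 489, 534, 594 and 560 CPM in other cells (0.68, SE 0.12, adjusted p = 3.66e-05). The inhibitor Cdkn1a had 214, 70.8, 80.1, 85.6 and 200 CPM in progenitors, against 54.3, 51.9, 68.2, 91.3 and 113 CPM in other cells. Its rise (0.85, SE 0.22, adjusted p = 0.00518) lay mainly in the samples of mouse 5, without which it was 0.23 (adjusted p = 0.749). The inhibitor Cdkn1b and the cyclin gene Ccnd2 did not pass (-0.20 and -0.11, adjusted p = 0.644 and 0.668), and Ccnd1 fell by 0.50, a call lost without mouse 2, 4 or 5 (-0.42, -0.46 and -0.46, adjusted p = 0.114, 0.0747 and 0.219).

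Stem cell and Wnt genes were low in progenitors. Of 18 stem genes 11 fell and 0 rose (median -1.12), and of 11 Wnt targets 8 fell and 0 rose (median -1.51). Olfm4, a marker of crypt base stem cells, had 34.7, 172, 62.3, 36.7 and 86.2 CPM in progenitors, against 3171, 2214, 1587, 1370 and 1582 CPM in other cells (-4.57, SE 0.20, adjusted p = 4.58e-19). The Wnt feedback gene Axin2 fell by 1.82 (SE 0.26, adjusted p = 2.64e-06), and neither gene's groups overlapped. Limiting Lgr5 to 1 UMI chose against stem cells, so these genes are close to the rule.

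Absorptive and host defence genes were low as well: of 21 absorptive list genes 12 fell and 0 rose in progenitors, with a median of -1.13. The antimicrobial lectin Reg3b had 1185, 1224, 2635, 831 and 788 CPM in progenitors, against 3917, 8974, 5594, 8015 and 6241 CPM in other cells, without overlap (-2.34, SE 0.18, adjusted p = 6.46e-12). Of 12 MHC class II and interferon genes 6 fell and 0 rose. Cd74, the chaperone of MHC class II, was lower in all 5 samples (-0.71, SE 0.13, adjusted p = 0.00015), and its fold without mouse 5 was -0.40 (adjusted p = 0.147).

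By size, the largest rises among abundant genes included Ccl9 and Creb3l1, the sialyltransferase St3gal6 (88.7 ± 27.8 CPM in progenitors and 25.4 ± 2.15 CPM in other cells, SD, n = 5 samples), Prxl2a, a peroxiredoxin-like gene (1.82), and Rap1gap, an activator of Rap1 GTPase activity (1.70). The largest falls outside the cell cycle included Edn1, the endothelin gene, at 5.78, 0, 0, 0 and 15.7 CPM in progenitors and 387, 127, 114, 135 and 196 CPM in other cells (-5.09, SE 0.37, adjusted p = 1.22e-12). Jaml, an adhesion molecule gene, had 1 UMI in all progenitor sums and 1570 in other cells. Edn1 and Jaml passed the filter through other cells alone and could only come out lower, so their falls are a description. Immediate early and heat shock genes, which dissociation of tissue also induces, were higher in 7 and lower in 1 of 18, with Fos at 1877 ± 395 CPM in progenitors and 1272 ± 153 CPM in other cells (0.59, adjusted p = 5.53e-05).

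Some of these calls against other cells depended on the fit. DESeq2 did not call Sox4, Lfng, Dtx4, Mmp7, Tac1, Cdkn1a and Ccnd1. Without the sample as a block Bhlha15, Sox4, Dll4, Lfng, Spink4, Ccl6, Sct, Tac1, Cdkn1a, Ccnd1 and Cd74 were not called. With a top hashtag of at least 80% the list of genes not called also held Foxa1, Foxa2, Gfi1, Notch1, Nrarp, Dtx4, Tff3 and Cdk6, and with all 8 mice Cdkn1a was at 0.11 (adjusted p = 0.766). After thinning of cells to 2000 UMIs, 26 of 35 named genes kept their side of the threshold. Among those that lost the call were Hspa5 (0.45, adjusted p = 0.102), Hsp90b1 (0.46, adjusted p = 0.161), Sytl2 (0.33, adjusted p = 0.773) and Fos (0.44, adjusted p = 0.127).

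**Figure D4:**
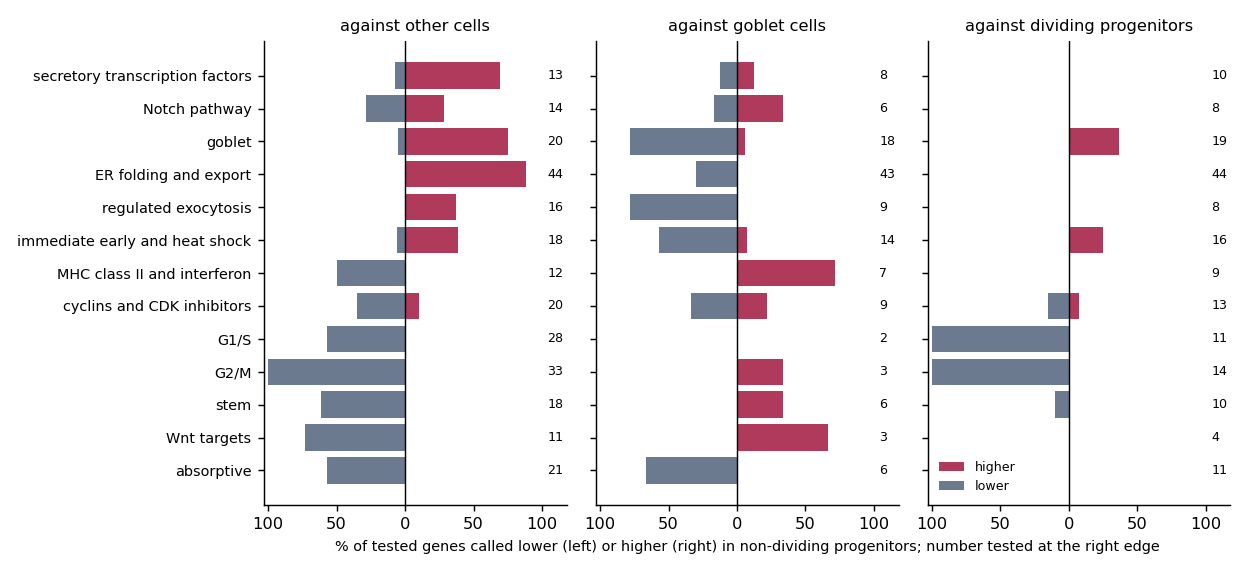
Percent of the tested genes of each list that were called higher or lower in non-dividing secretory progenitors, against other cells, goblet cells and dividing progenitors. Against other cells, genes of the endoplasmic reticulum were called higher in 39 of 44, and against goblet cells lower in 13 of 43.

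Goblet cells, defined by at least 1% goblet products, were the mature class with which progenitors were compared. Against them 18.9% of 3202 tested genes were called (9.87% higher and 9.03% lower in progenitors), from the same 5 samples, and without mouse 5 254 genes were called in place of 605. Goblet products chose these classes, so lower goblet list genes in progenitors are a description: 14 of 18 fell, 1 rose and 3 did not pass, with a median of -0.88. Tff3 had 13344, 11074, 18586, 19454 and 19826 CPM in progenitors, against 38145, 29862, 29105, 32428 and 34801 CPM in goblet cells (-1.08, SE 0.09, adjusted p = 4.25e-09), without overlap. Ccl9 was the gene that rose, higher in 4 of 5 samples (0.84, SE 0.22, adjusted p = 0.0055), a call that ended without mouse 2 (0.55, adjusted p = 0.0838), without the block (0.86, adjusted p = 0.0898) and by DESeq2 (0.78, adjusted p = 0.341).

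Genes of granule release were lower in progenitors than in goblet cells, with 7 of 9 exocytosis genes lower, and 0 higher. Scin, an actin-severing protein, had 162, 5.06, 53.4, 42.8 and 110 CPM in progenitors, against 607, 465, 212, 361 and 337 CPM in goblet cells (-2.49, SE 0.26, adjusted p = 8.56e-08). Sytl2 and Rab27b, a granule GTPase, were lower by -1.14 and -1.0 on the log2 scale, and Rab27b lost its call without mouse 5 (-0.58, adjusted p = 0.164). Fer1l6, a ferlin family gene, had 28.9, 40.5, 26.7, 55.0 and 27.4 CPM in progenitors, against 205, 170, 149, 195 and 201 CPM in goblet cells (-2.43, SE 0.24, adjusted p = 2.92e-08). None of these 4 genes overlapped between the groups, and 9.68% of all genes tested did not either. Fer1l6 passed the filter through goblet cells and could hardly come out higher, so its fall is a description.

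Of 43 endoplasmic reticulum genes 13 were lower in progenitors than in goblet cells, 0 higher and 30 did not pass, with a median of -0.34. Hspa5 averaged 1453 ± 279 CPM in progenitors and 2033 ± 325 CPM in goblet cells (SD, n = 5 samples, -0.54, adjusted p = 8.72e-05), and Hsp90b1 averaged 1421 ± 503 and 1446 ± 170 CPM in the same groups (-0.12, adjusted p = 0.501). Pdia3, a disulfide isomerase, fell by 0.42, a call lost without mouse 5 (-0.40, adjusted p = 0.0738) and without mouse 8 (-0.33, adjusted p = 0.0504).

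**Figure D5:**
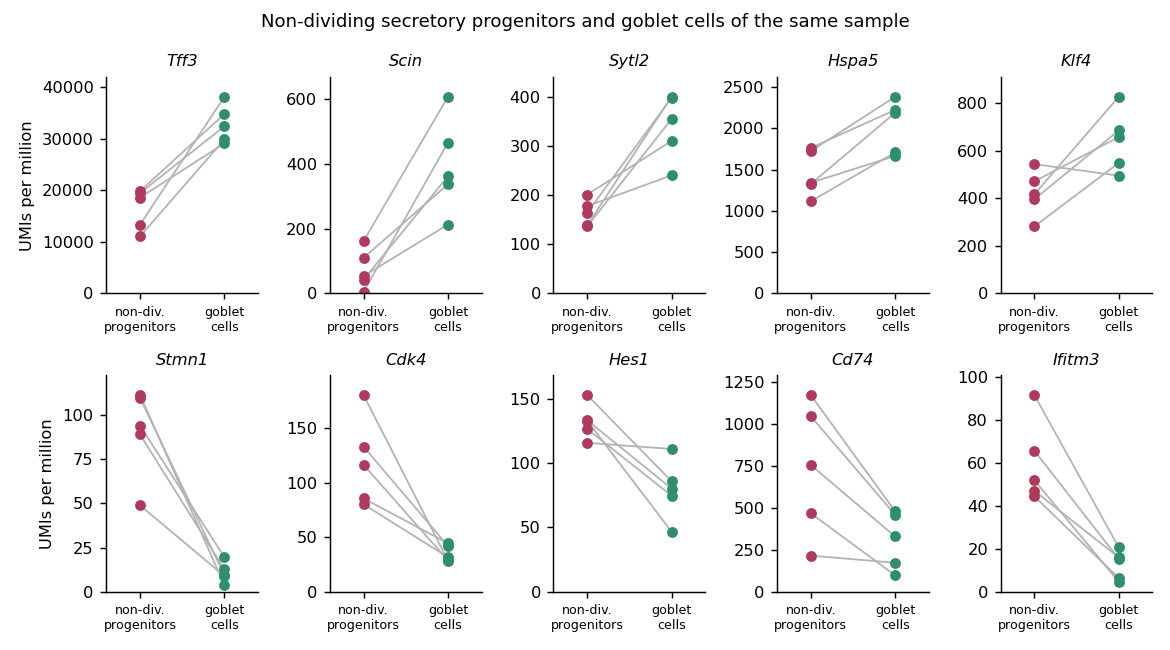
Levels in CPM of 10 genes in non-dividing secretory progenitors and in goblet cells, with a point for each of the 5 samples and a line that joins the same sample. Tff3 and Scin are lower and Stmn1 and Cdk4 are higher in progenitors in all 5 samples, without overlap.

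Most secretory factors did not pass between progenitors and goblet cells: of 8 tested, Sox9 rose, Klf4 fell and 6 did not pass. Creb3l1 averaged 401 ± 28.6 CPM in progenitors and 358 ± 34.6 CPM in goblet cells (SD, n = 5 samples, 0.12, adjusted p = 0.572). Klf4 had 416, 470, 543, 281 and 396 CPM in progenitors, against 826, 657, 495, 548 and 684 CPM in goblet cells, lower in 4 of 5 samples (-0.68, SE 0.14, adjusted p = 0.000668). Sox9 had 150, 121, 116, 141 and 137 CPM in progenitors, against 46.7, 84.2, 72.9, 116 and 74.8 CPM in goblet cells, higher in all 5 (0.69, SE 0.21, adjusted p = 0.0183). Without mouse 5 both calls were lost (Klf4 -0.48, adjusted p = 0.102; Sox9 0.42, adjusted p = 0.4), and also with all 8 mice (Klf4 -0.23, adjusted p = 0.338; Sox9 0.32, adjusted p = 0.179). DESeq2 did not call Sox9 (0.72, adjusted p = 0.135).

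In the Notch pathway 2 of 6 tested genes rose and 1 fell in progenitors against goblet cells. Hes1 had 133, 126, 116, 153 and 133 CPM in progenitors, against 46.7, 74.7, 111, 85.9 and 80.2 CPM in goblet cells, without overlap (0.69, SE 0.21, adjusted p = 0.0168). Hes6 averaged 146 ± 38.3 CPM in progenitors and 93.8 ± 15.4 CPM in goblet cells (SD, n = 5 samples, 0.61, adjusted p = 0.0219), and Neurl3, a ubiquitin ligase gene, fell (-0.65, adjusted p = 0.0469). Leaving out mouse 4 or mouse 5 ended the calls of Hes1 (0.65 and 0.54, adjusted p = 0.0556 and 0.26) and of Hes6 (0.57 and 0.55, adjusted p = 0.0735 and 0.213), and leaving out any of the 4 mice ended that of Neurl3 (-0.75 to -0.54, adjusted p = 0.0538 to 0.385). With all 8 mice Hes1 was at 0.27 (adjusted p = 0.319), and DESeq2 called none of Hes1 (0.71, adjusted p = 0.14), Hes6 (0.59, adjusted p = 0.213) and Neurl3 (-0.65, adjusted p = 0.31).

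Of 9 cyclins and cell cycle inhibitors 2 rose and 3 fell in progenitors against goblet cells, both classes having at most 1 UMI of Mki67 and Top2a. Stmn1, a microtubule regulator, had 110, 111, 89.0, 48.9 and 94.1 CPM in progenitors, against 9.33, 3.83, 12.7, 8.89 and 19.6 CPM in goblet cells (2.92, SE 0.34, adjusted p = 3.06e-07). Cdk4, the partner of the D cyclins, had 133, 116, 80.1, 85.6 and 180 CPM in progenitors, against 42.0, 28.7, 31.7, 44.4 and 28.5 CPM in goblet cells (1.79, SE 0.25, adjusted p = 5.51e-06). Every progenitor sample of both genes was above every goblet sample. Both genes passed the filter on low counts through the progenitor sums and could hardly come out lower, so their rises are a description. The chromatin protein gene Hmgb2 rose by 1.11, and the nucleosome-binding factor Hmgn1 by 1.75, while Ccnd2 fell by 0.74.

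Against goblet cells 5 of 7 MHC class II and interferon genes rose in progenitors and 0 fell (median 1.14), where against other cells 6 of 12 fell. Cd74 had 468, 1047, 757, 1173 and 216 CPM in progenitors, against 98, 459, 330, 480 and 173 CPM in goblet cells, higher in all 5 samples (1.14, SE 0.16, adjusted p = 3.97e-06). H2-Eb1, a class II chain, rose by 1.21 and Ifitm3, an interferon-induced membrane protein, by 2.05. H2-Ab1, another chain, rose by 0.48, and its call was lost without mouse 2, 4 or 8 (0.53, 0.40 and 0.35, adjusted p = 0.0588, 0.166 and 0.271) and by DESeq2 (0.45, adjusted p = 0.282). Clca3b, from the stem list, rose by 1.78 against goblet cells and was called lower against other cells.

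Lower in progenitors than in goblet cells were also Nupr1, a stress-induced chromatin protein, at 59.1 ± 46.8 CPM in progenitors and 364 ± 102 CPM in goblet cells (SD, n = 5 samples, -2.75, adjusted p = 2.07e-08), and the fatty acid binding protein Fabp2, at 288 ± 145 CPM in progenitors and 721 ± 47.6 CPM in goblet cells (-1.46, adjusted p = 1.76e-07). Reg3g, an antimicrobial lectin, fell by 1.73. Of 14 immediate early and heat shock genes 8 were lower in progenitors and 1 was higher. Jun, an AP-1 subunit, was -0.43 (adjusted p = 0.015), and -0.06 without mouse 5 (adjusted p = 0.839); DESeq2 did not call it (-0.44, adjusted p = 0.0917).

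Dividing secretory progenitors differ from the non-dividing ones, by the rule, in Mki67 and Top2a alone. Sums per mouse, both gates together, gave 4 mice: mouse 2, mouse 4, mouse 5 and mouse 8, with 5, 9, 18 and 14 non-dividing and 5, 11, 15 and 24 dividing progenitors. Of 4363 genes 4.01% were called, 1.03% higher and 2.98% lower in non-dividing progenitors. Without mouse 8, 82 genes were called in place of 175. Cycle genes are close to the rule here: 14 of 14 G2/M and 11 of 11 G1/S genes fell, with medians of -3.03 and -2.04.

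The replication clamp Pcna had 17.8, 55.0, 56.1 and 44.2 CPM in non-dividing progenitors, against 319, 72.5, 262 and 180 CPM in dividing ones, without overlap (-2.04, SE 0.30, adjusted p = 0.000191). Hmgb2 had 365, 244, 241 and 367 CPM in non-dividing progenitors, against 1178, 1557, 1483 and 1395 CPM in dividing ones (-2.17, SE 0.18, adjusted p = 1.46e-07). Cell by cell, 1 of 59 non-dividing progenitors had a G2/M level above the median of dividing ones, and 7 of 59 a G1/S level above theirs. Conversely 6 of 107 dividing progenitors lay below the G2/M median of non-dividing ones. Some overlap of the classes therefore remained on either side of the limit.

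Of 10 secretory transcription factors tested between non-dividing and dividing progenitors 0 were called in either direction, with a median of 0.41 against 0.01 for all genes. Creb3l1 had 409, 373, 425 and 377 CPM in non-dividing progenitors, against 265, 290, 288 and 345 CPM in dividing ones (0.47, SE 0.16, adjusted p = 0.128), and with all 8 mice it was called (0.44, adjusted p = 0.0294). Its groups did not overlap, and 8.27% of all genes tested did not either. Foxa3 was higher in 4 of 4 mice (0.73, SE 0.21, adjusted p = 0.0524), and Klf4 in 2 of 4 (0.16, SE 0.19, adjusted p = 0.748).

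In the Notch pathway 0 of 8 genes were called. Hes1 averaged 128 ± 19.7 CPM in non-dividing progenitors and 115 ± 35.9 CPM in dividing ones (SD, n = 4 mice, 0.25, SE 0.23, adjusted p = 0.657). Dll4 averaged 38.5 ± 10.3 CPM in non-dividing progenitors and 39.8 ± 21.6 CPM in dividing ones (0.15, SE 0.36, adjusted p = 0.885). Notch1 was too low for the test, with a UMI in 5.08% of non-dividing and 18.7% of dividing progenitors, whose median depths were 24231 and 29524 UMIs. Thinned to 10000 UMIs a cell (51 non-dividing and 99 dividing cells deep enough), these shares were 1.96% and 10.1%. Endoplasmic reticulum genes gave 0 calls of 44, with Hspa5 at 0.13 (SE 0.14, adjusted p = 0.697).

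Of 19 genes of the goblet list 7 were higher in non-dividing progenitors and 0 lower (median 0.62). Spink4 had 9979, 18115, 5904 and 14451 CPM in non-dividing progenitors, against 6071, 9243, 4920 and 7634 CPM in dividing ones, higher in 4 of 4 mice (0.78, SE 0.12, adjusted p = 0.000452). Ccl9 had 472, 318, 199 and 608 CPM in non-dividing progenitors, against 162, 244, 98.4 and 196 CPM in dividing ones (1.23, SE 0.20, adjusted p = 0.000493). Tff3 and Agr2 rose by 0.67 and 0.53, and without mouse 2 neither passed (0.48 and 0.32, adjusted p = 0.0694 and 0.25). Without the mouse as a block Spink4 (0.86, adjusted p = 0.11), Tff3 (0.65, adjusted p = 0.11) and Agr2 (0.55, adjusted p = 0.2) were not called, and 113 genes were called in all. With all 8 mice Spink4 (0.53, adjusted p = 0.057), Ccl9 (0.76, adjusted p = 0.0555) and Agr2 (0.34, adjusted p = 0.162) were not called either.

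St3gal6 and Arfip1 were among the largest rises in non-dividing against dividing progenitors. St3gal6 had 80.1, 110, 63.1 and 112 CPM in non-dividing progenitors, against 32.4, 34.8, 33.6 and 27.8 CPM in dividing ones (1.58, SE 0.29, adjusted p = 0.00181), without overlap. Arfip1, an effector of Arf GTPases, had 80.1, 73.3, 60.7 and 81.6 CPM in non-dividing progenitors, against 37.8, 34.8, 26.4 and 30.7 CPM in dividing ones (1.28, SE 0.28, adjusted p = 0.0101). Without mouse 8 both lost the call (1.32 and 1.18, adjusted p = 0.0642 and 0.111), as did Retreg1, a receptor for selective autophagy of the endoplasmic reticulum (1.12, and 0.89 without mouse 8, adjusted p = 0.228; 1.05 without mouse 4, adjusted p = 0.0638). DESeq2 did not call Arfip1 (1.29, adjusted p = 0.189) and Retreg1 (1.11, adjusted p = 0.177).

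Of 16 immediate early and heat shock genes 4 rose and 0 fell in non-dividing progenitors: Junb, Ier2, Jund and Btg2, of which the first 3 were named after their values were seen. Junb, an AP-1 subunit, had 561, 941, 535 and 510 CPM in non-dividing progenitors, against 184, 473, 384 and 355 CPM in dividing ones, without overlap (0.90, SE 0.18, adjusted p = 0.00415). Junb was not called without the mouse as a block (0.90, adjusted p = 0.0573), and after thinning to 2000 UMIs its value was -0.23 (adjusted p = 0.827). The call of Ier2, another immediate early gene, ended without mouse 8 (0.72, adjusted p = 0.0531). That of Jund, also an AP-1 subunit, ended without mouse 2, 4, 5 or 8 (0.40, 0.63, 0.61 and 0.74, adjusted p = 0.213, 0.0742, 0.118 and 0.0578), and with all 8 mice it was at 0.31 (adjusted p = 0.212). Btg2 rose by 0.64 (adjusted p = 0.0475), a call that ended without mouse 2, 4 or 8 (0.44, 0.67 and 0.66, adjusted p = 0.181, 0.107 and 0.182) and by DESeq2 (0.66, adjusted p = 0.0539). The inhibitors Cdkn1a and Cdkn1b were not called (0.28 and -0.27, adjusted p = 0.573 and 0.665). Olfm4 fell to 62.3, 36.7, 65.4 and 143 CPM in non-dividing progenitors, against 1578, 252, 146 and 292 CPM in dividing ones (-2.04, SE 0.36, adjusted p = 0.00131), with mouse 2 far above the rest of the dividing progenitors; DESeq2 did not call it (-2.22, adjusted p = 0.114).

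Within progenitors, control cells at 72 h (3 samples) were compared with control cells at 48 h (4 samples), on sums of at least 3 cells, a limit set after the numbers of cells were known. Of 1607 genes 0 were called (0%), with 52 at an unadjusted p under 0.05, and DESeq2 called 0 with 15 at an unadjusted p under 0.05. Without mouse 8, 19 genes were called, and without mouse 2, 1 gene. Among the smallest p-values were those of Scd2, a fatty acid desaturase, and of Cyp51 and Hmgcs1, enzymes of sterol synthesis, with log2 fold changes at 72 h over 48 h of -1.42, -1.22 and -1.12 (all adjusted p = 0.982). Progenitors of 72 h clones and control were not compared gene by gene: the comparison was to be made with at least 3 samples a group, and 2 clone samples held at least 3 progenitors.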

How the data were processed

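The data are 2 pools of single cells from 8 mice. Per the file headers, the deposited matrices hold counts, whole numbers of UMIs per gene and of hashtag reads per barcode, made with Cell Ranger 6.1.2 and mm10 per the submitters' processing notes and not normalized. Other values, namely gene identifiers and names and the cell barcodes, stand in the deposited lists of features and of barcodes. The authors' own cell filters and hashtag caller are not given in the sources used here. The pools held 3342 barcodes (30278443 UMIs) and 2110 (28050962 UMIs).

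Cells needed at least 1000 UMIs, 500 genes, a mitochondrial share under 20% and a top hashtag with at least 60% of hashtag counts, which left 2011 with a median of 19391 UMIs. Hashtag and pool gave mouse and gate, per the labels. The mouse is the replicate in the shares and against dividing progenitors. Against other and goblet cells it is the sample of a mouse and gate, so that n = 5 samples come from 4 mice and mouse 5 counts for clones and for control. Cells are not replicates, and p-values measure the spread between these samples. For the share of progenitors, an exact permutation test (two-sided) was run over mice. Limits from a count of 0 (3 counts) allow for counting error alone. UMIs were added up for each mouse and gate, from at least 5 cells, and tested in R 4.3.3 with the quasi-likelihood test of edgeR 4.0.16 (two-sided, TMM scaling, low genes removed by filterByExpr, Benjamini-Hochberg over all genes, called at 0.05), with the sample as a block. Both sums of a block come from the same mouse and suspension, so the pairing is given by the design. The within-progenitor comparison used at least 3 cells a sum and the pool as covariate, since 5 left too few samples. The 13 rule genes were left out of the tests but stayed in the totals.

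The members and gene lists were chosen with earlier results of these data known. Genes were named by a rule: the 10 strongest called changes in either direction against other cells and the 6 strongest in the other comparisons, given a mean log2 CPM of 5 or more and 1 direction in all pairs, then all tested secretory factors, Notch genes and cell cycle regulators, and the 3 most abundant tested members of each other list; Junb, Ier2, Jund and a few others were added after their values were seen, as was the absorptive class. The values of some genes are not reported here, and 1 such gene was left out of the absorptive list and class. Alternatives were DESeq2 1.42.0, no TMM, other filters and limits, thinning to 2000 UMIs, no block, each mouse left out, all 8 mice with both gates summed, and other rules for the members. Scripts were tested on simulated data. Promoters are from RefSeq (GRCm38.p6), and all 125 named genes were found in GENCODE under the same identifier, 124 under the same name.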

Additional observations from a re-analysis of the deposited data

Results flagged for a closer look

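Of 266 groups of 4 or 5 samples examined, 15 had a highest or lowest sample far from the rest. This share is close to the 1 in 20 that chance gives, so the samples below are listed as a description. In the sums over non-dividing progenitors of a mouse and gate, the clones of mouse 8 were high for Notch1 (20.2 CPM) and Cdkn2b, a cell cycle inhibitor (45.5 CPM). Clones of mouse 5 were high for Jaml (5.78 CPM) and for the stem cell factor Ascl2 (5.78 CPM), each on 1 UMI. Control cells of mouse 2 were high for the mitotic cyclin Ccnb2 (53.4 CPM) and for Reg3b (2635 CPM). Control cells of mouse 4 were high for Ccl6 (1522 CPM), and control cells of mouse 5 were low for the mitotic kinase Cdk1 (0 CPM). In sums per mouse, progenitors of mouse 2 were again high for Ccnb2 (53.4 CPM) and those of mouse 4 for Junb (941 CPM). Among the classes compared with them, goblet cells of mouse 5 clones were low for Ahnak, a scaffold protein (56.0 CPM). Dividing progenitors of mouse 2 were low for Btg2 (243 CPM) and Sytl2 (48.7 CPM) and high for Olfm4 (1578 CPM), and those of mouse 5 were high for Cdkn1a (161 CPM). Mouse 2 had 5 non-dividing and 5 dividing progenitors, the fewest of the mice used.

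The clone-control difference in the share of progenitors changed between the times by 3.67 percentage points, from the values of each mouse: -2.63, -5.49, -1.32 and -5.56 points in the 48 h mice, and -1.18, 0.464, -0.335 and 0.73 points in the 72 h mice.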

How the results depend on the processing

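Leaving out each mouse in turn gave 516 to 1178 genes called against other cells, 254 to 560 against goblet cells, 82 to 168 against dividing progenitors and 0 to 19 between control times. Thinning to 2000 UMIs gave 101, 116 and 1 calls against other, goblet and dividing cells; a top hashtag of 80% gave 506 against other cells. DESeq2 gave 289 against goblet cells and 84 against dividing ones, where a filter of 1 UMI in 2 sums gave 373 and no replicate block gave 113. The cause was not tested. The share of 48 h clones minus control was -3.33 points with all 3 genes required, -0.519 with at least 1, -1.82 thinned, -3.55 from 5000 UMIs, -4.78 with goblet products under 2%, -2.89 with mitochondrial shares under 50%, -3.53 with a top hashtag of 80% and -3.75 with sign flips in the replicate block, none past the threshold. In the same order without sign flips, clones at 72 h minus 48 h gave 0.965, -1.39 (reversed), 1.37, 2.00, 0.524, 1.55 and 0.793, and the change of the difference gave 2.75, -0.951 (reversed), 2.28, 2.74, 2.96, 2.65 and 1.29. For 48 h clones minus control, the unadjusted p stayed at 0.0286 (exact permutation test) in part of these settings. They were all 3 genes, thinned, from 5000 UMIs, mitochondrial shares under 50% and a top hashtag of 80%. There the call ended through the adjustment over 5 comparisons alone. It held with mitochondrial shares under 10% (-5.18) and with dividing progenitors included (-12.6). Clones minus control at 72 h was -1.65 in pool 1 and 1.49 in pool 2, and control at 72 h minus 48 h was -6.63 with dividing progenitors included. Leaving out mice gave -4.56 to -3.15, -0.349 to 0.286, 2.17 to 3.10, -1.93 to -0.522 and 3.07 to 4.48 points, for clones minus control at 48 h and at 72 h, 72 h minus 48 h in clones and in control, and the change of the difference. Leaving out any mouse ended all 3 calls among these, also where the mouse was of the other time, since p-values are adjusted over all 5. For clones minus control at 48 h, leaving out a 48 h mouse leaves 3 against 3, which can give no p under 0.1 (exact permutation test). Of 1772 values of named genes under alternatives 1549 kept direction and side of the threshold, 202 fell short of it, 19 passed newly and 2 reversed, both after thinning: Sox4 against other cells (0.0463, adjusted p = 0.966) and Junb against dividing progenitors (-0.234, adjusted p = 0.827). All alternatives with dividing progenitors, 5000 UMIs, all 8 mice or cells with no secretory rule gene were chosen after seeing the data.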

Other observations

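Neurog3, the factor that starts the enteroendocrine fate, had UMIs in 3 of the 59 non-dividing progenitors, 10, 19 and 1 UMIs in control cells of mouse 5, mouse 1 and mouse 4. The first of these also had 9 UMIs of Insm1, another endocrine factor, and no Atoh1. All 3 had 257 to 266 UMIs of Tff3. A Neurog3 UMI was seen in 1 of 107 dividing progenitors, 0 of 214 goblet cells and 17 of 1952 other cells, and in 6 of 151 absorptive cells, which are among the other cells. These shares were not tested.

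Genes of the cytosolic ribosomal proteins were looked at after their values were seen. Of 79 tested, 73 were higher in non-dividing progenitors than in goblet cells and 0 lower, with a median log2 fold change of 0.52 against 0.01 for all genes. Against other cells 20 were higher and 0 lower, with a median of 0.23 against -0.06, and against dividing progenitors 0 were called, with a median of 0.25.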
